A study of Mus musculus with 23 samples.

Results

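Wnt6 and Wnt10a are neighbouring genes of secreted Wnt ligands on mouse chromosome 1, and their rows were read by gene symbol from each of the 5 deposited comparison tables. They are 2 of 34682 genes listed, 2 of the 79 genes listed in the tables against wild type, and both are present in all 5 tables. The RNA came from distal forelimbs of embryos at stage E11.5. Mutants were engineered with CRISPR/Cas9 to carry inversion Inv1 (3 libraries), Inv2 (4), Inv3 (3) or Inv4 (3), or the genotype labelled Inv1DelCTCF (2), which by its name joins Inv1 to a deletion of a CTCF site. Inv1DelCTCF was compared with Inv1 and the 4 inversions with WT (5 libraries). Per the series' design text, the inversions move enhancers from the domain of Epha4 into a gene-dense region. The labels name G4 embryonic stem cells as the cell type of every library, WT included. How many copies of each allele the embryos carried is not given in the sources used here.

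Wnt ligands carry a lipid that Porcn attaches, leave the cell with the help of Wls, and bind Frizzled receptors together with Lrp5 or Lrp6. In the beta-catenin arm this stabilises beta-catenin, which acts with Tcf and Lef factors on target genes such as Axin2 and Lef1. Wnt6 and Wnt10a are both known from surface ectoderm, and WNT10A is known in humans for its role in teeth and skin appendages. Wnt6 is known from other rearrangements as a gene that Epha4 enhancers can activate in limb buds, with fused digits as a result. The comparisons with WT therefore address whether the RNA level of either ligand gene changed in these inversions. They do not measure contact with enhancers.

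The promoters of Wnt6 and of 3 neighbours are printed to set Wnt6, called in no inversion, beside genes that rose in at least 1. Those of Prkag3 and Cdk5r2, which also rose, lie partly inside the annotated gene and are not shown. That of Fev overlaps its gene by 11 bases and is shown without them. No promoter entry was available for Wnt10a, so only Wnt6 of the pair is covered. The promoters shown are RefSeq sequences of build GRCm38.p6, matched by symbol. They are read in the gene's direction up to its start, with each CpG dinucleotide in capitals. The authors' build is mm9, so these positions are not those of their files.
Wnt6 (chr1:74771642-74771891, plus strand): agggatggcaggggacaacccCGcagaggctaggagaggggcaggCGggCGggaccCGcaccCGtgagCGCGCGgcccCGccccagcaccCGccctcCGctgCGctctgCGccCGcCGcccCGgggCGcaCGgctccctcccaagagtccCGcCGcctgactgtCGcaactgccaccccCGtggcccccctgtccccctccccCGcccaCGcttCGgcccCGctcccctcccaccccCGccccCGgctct
Cyp27a1 (chr1:74713285-74713534, plus strand): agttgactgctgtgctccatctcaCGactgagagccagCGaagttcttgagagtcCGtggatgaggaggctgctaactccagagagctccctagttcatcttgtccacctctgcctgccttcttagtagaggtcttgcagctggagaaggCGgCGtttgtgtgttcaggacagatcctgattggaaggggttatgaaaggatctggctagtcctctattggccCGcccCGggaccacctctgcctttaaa
Fev (chr1:74885420-74885658, minus strand): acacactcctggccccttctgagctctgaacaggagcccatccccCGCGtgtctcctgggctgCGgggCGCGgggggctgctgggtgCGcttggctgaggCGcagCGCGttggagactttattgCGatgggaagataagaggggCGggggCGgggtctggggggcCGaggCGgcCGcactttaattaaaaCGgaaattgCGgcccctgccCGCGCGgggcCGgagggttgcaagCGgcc
Ihh (chr1:74951673-74951922, minus strand): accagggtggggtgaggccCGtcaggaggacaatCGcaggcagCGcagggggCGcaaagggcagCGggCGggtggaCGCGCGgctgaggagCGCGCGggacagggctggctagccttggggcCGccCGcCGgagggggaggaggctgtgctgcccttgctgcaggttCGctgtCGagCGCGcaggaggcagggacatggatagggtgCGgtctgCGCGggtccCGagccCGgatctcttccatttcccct
The Wnt6 window holds 28 CpG in 250 bases and is 79.6% G or C. Of 27025 promoters of the same length in the table, 7.26% hold at least as many CpG, and the median promoter holds 6. Cyp27a1 holds 7, Ihh 24 and Fev 22 CpG, the last in 239 bases because 11 bases overlapping the annotated gene were left out. The 3 called neighbours thus range from near the median promoter in CpG count (Cyp27a1) to CpG-rich (Ihh and Fev). The promoter of Wnt6 has more CpG than any of these 3.

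Wnt6 was not called in any inversion. The authors' deposited table lists it at a log2 change of 0.03 (SE 0.140) in Inv1, -0.08 (SE 0.131) in Inv2, -0.01 (SE 0.141) in Inv3 and 0.04 (SE 0.142) in Inv4. As folds with 95% intervals from those SE, the authors' deposited table gave 1.02 (0.841 to 1.23) in Inv1, 0.946 (0.792 to 1.13) in Inv2, 0.991 (0.818 to 1.20) in Inv3 and 1.03 (0.849 to 1.25) in Inv4. All 4 intervals include 1, and the highest upper bound among them is 1.25-fold, or 0.319 on the log2 scale. The deposited changes are drawn toward 0. With that pull undone, as a limit and not an estimate, the upper bound in Inv4 was 0.385. The adjusted p of the authors' DESeq2 Wald test was 0.994, 0.836, 0.963 and 0.864 in the order Inv1 to Inv4. No value per library is given in these tables, so only the SE speaks of how libraries vary.

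Wnt10a had positive log2 changes in the 4 tables, and none passed the test. In the authors' deposited table they were 0.32 (SE 0.188) in Inv1, 0.25 (SE 0.182) in Inv2, 0.39 (SE 0.189) in Inv3 and 0.46 (SE 0.193) in Inv4. The corresponding folds from the authors' deposited table were 1.25 (0.971 to 1.62), 1.19 (0.930 to 1.53), 1.31 (1.01 to 1.69) and 1.37 (1.06 to 1.79), so the intervals in Inv3 and Inv4 exclude 1 before adjustment. Unadjusted p-values in the authors' deposited table were 0.0836, 0.165, 0.0410 and 0.0177, and adjusted p-values were 0.831, 0.542, 0.116 and 0.0688. The 4 comparisons share the WT libraries, so their common sign is not 4 separate observations. Wnt10a stood at rank 18 of 72 listed genes by p in Inv4 and at rank 30 of 79 in Inv3.

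**Figure D1:**
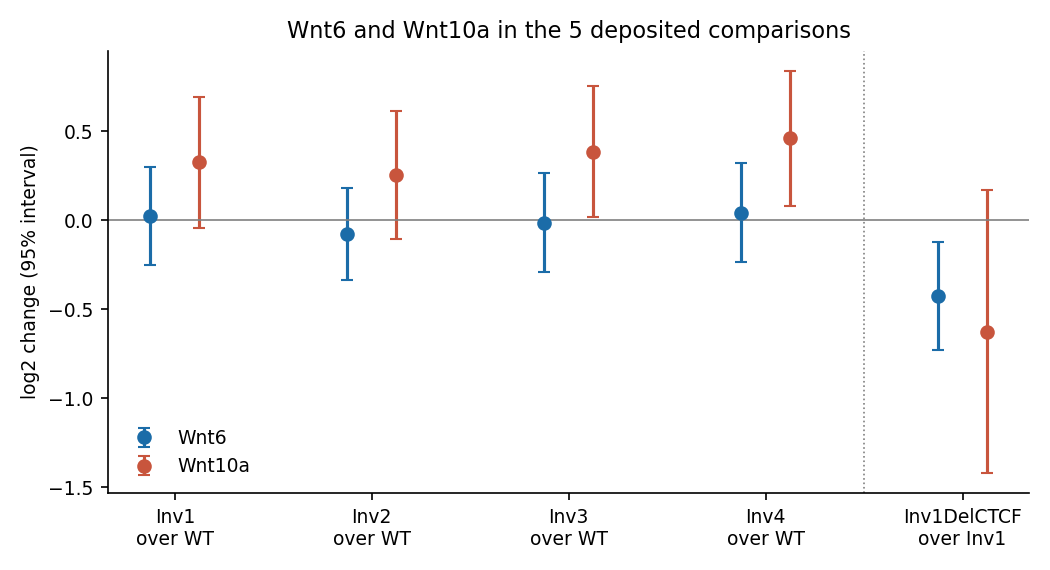
Log2 change of Wnt6 (blue) and Wnt10a (red) in each deposited comparison, one comparison per position on the x axis, with 95% intervals from the deposited SE as bars. Wnt6 lies within 0.08 of 0 in the 4 inversions and at -0.43 in Inv1DelCTCF against Inv1. Wnt10a lies between 0.25 and 0.46 in the inversions and at -0.63 in Inv1DelCTCF against Inv1.

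Across both genes and the 4 inversions, 0 of 8 comparisons with WT passed an adjusted p of 0.05 in the authors' DESeq2 test, and 2 of 8 had an unadjusted p under 0.05. Among all genes listed, 8.97% were called in Inv1, 4.05% in Inv2, 32.9% in Inv3 and 20.8% in Inv4. Those lists hold genes around the locus only, and in Inv3 and Inv4 calls were frequent, so an absence of calls for 2 genes is read against those shares. At a threshold of 0.1, Wnt10a would be called in Inv4, where 29.2% of the listed genes pass. At that threshold the shares are 10.3% in Inv1, 4.05% in Inv2 and 35.4% in Inv3.

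No difference between inversions passed the test for either ligand gene. For each gene the log2 changes of each of the 6 pairs of inversions were subtracted and set over their combined SE, with Benjamini-Hochberg adjustment over all genes listed in both tables. Of the 12 tests 0 passed, 0 had an unadjusted p under 0.05, and the smallest unadjusted p was 0.439, while the share of all genes that passed was 8.11% for Inv2 minus Inv1, 23.1% for Inv3 minus Inv1, 4.05% for Inv3 minus Inv2, 13.9% for Inv4 minus Inv1, 4.17% for Inv4 minus Inv2 and 4.17% for Inv4 minus Inv3. The widest gap for Wnt10a was between Inv4 and Inv2, at 0.21 (95% interval -0.32 to 0.73) on the log2 scale. For Wnt6 it was also between Inv4 and Inv2, at 0.12 (-0.26 to 0.50). These intervals still allow differences of up to 0.73 for Wnt10a and 0.50 for Wnt6, so equal levels are not shown. They rest on deposited changes that are drawn toward 0 for low genes such as Wnt10a, so its true gap may be wider. With that pull undone, as a limit and not an estimate, its gap between Inv4 and Inv2 was 0.49 and still did not pass.

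In Inv3 and Inv4 genes on either side of the pair moved while the pair was not called. Sides and order here are those of the reference annotation, and the order on the inverted chromosomes was not worked out. Beside Wnt6 in that order stand Ttll4, Cyp27a1 and Prkag3, and beside Wnt10a the next listed genes are Cdk5r2, Fev and Ihh. The authors' deposited table for Inv4 shows that Prkag3 (a muscle subunit of AMP-activated kinase) and Cyp27a1 (a sterol hydroxylase) rose by 3.01 (SE 0.253) and 1.55 (SE 0.119) on the log2 scale, and Ihh (the Indian hedgehog ligand) rose by 1.74 (SE 0.267). In that table, Cdk5r2 at 0.63 (SE 0.256, adjusted p = 0.0564) and Fev at 0.59 (SE 0.267, adjusted p = 0.0935) missed the threshold, as Wnt10a did. In reference order, Wnt6 and Wnt10a thus lay between genes called on both sides in Inv4, which need not hold for the order on the inverted chromosome.

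In Inv3 the called neighbours were Fev (an ETS transcription factor of serotonergic neurons), Ihh, Cdk5r2 (an activator of the kinase Cdk5) and Prkag3, listed at 6.76, 1.77, 1.43 and 1.28 on the log2 scale (the authors' deposited table). Ttll4, a gene of the tubulin tyrosine ligase-like family, had a log2 change of -0.29 (SE 0.085) with an adjusted p of 0.00535 as the authors' deposited table gives them, and so fell, and Cyp27a1 at -0.17 (SE 0.122) was not called. In Inv2 the only one of the 6 neighbours called was Ihh at 1.37 (SE 0.266) in the authors' deposited table. In Inv1 the count was 0 of 6 by the authors' DESeq2 test, and among them Fev, at 0.57 (SE 0.266), had the highest log2 change in the authors' deposited table. Of all listed genes 8.97% were called in Inv1, 4.05% in Inv2, 32.9% in Inv3 and 20.8% in Inv4. At these shares, 0 of 6 in Inv1 says little about the neighbours. Wnt6 had a smaller absolute log2 change than each of these 6 genes in all 4 tables.

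**Figure D2:**
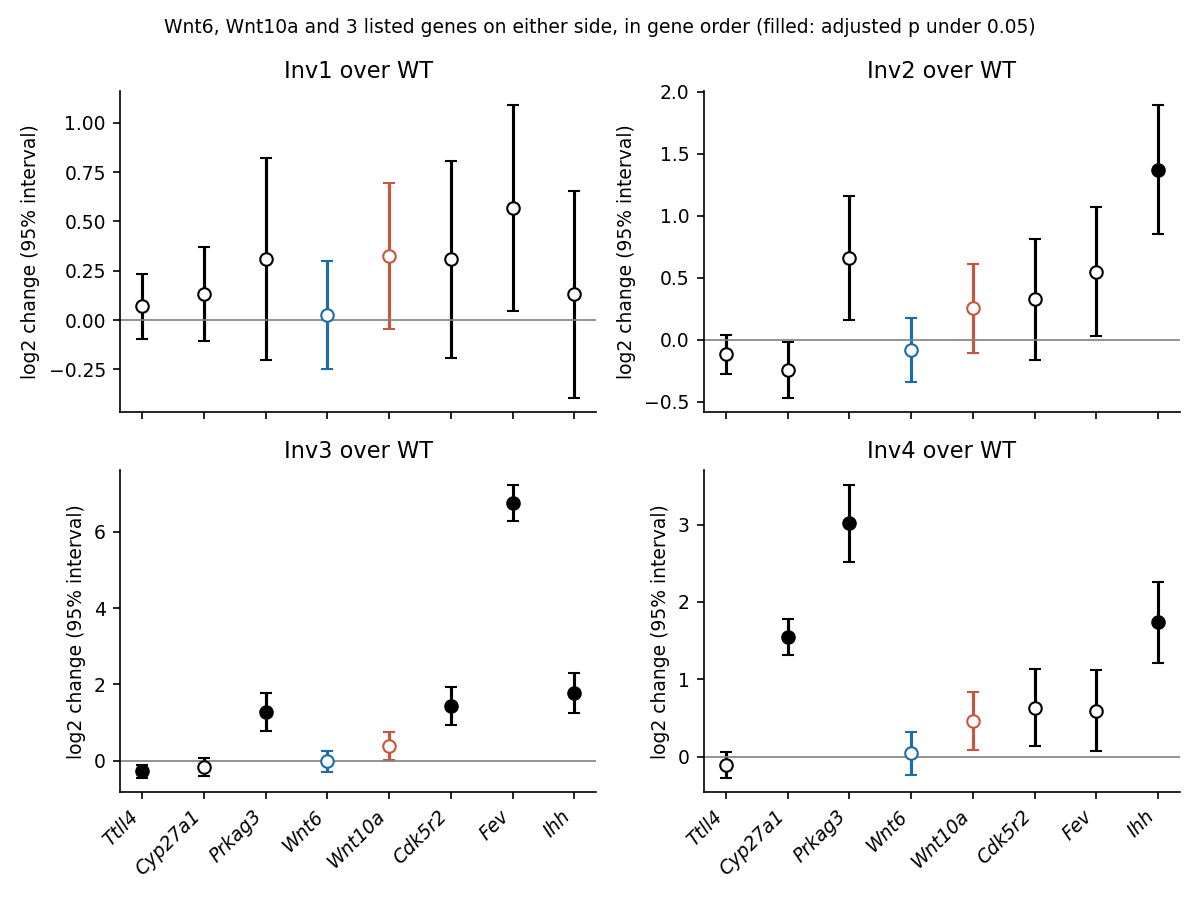
Log2 change against WT of Wnt6 (blue), Wnt10a (red) and the 3 listed genes on either side (black), 1 panel per inversion with its own y scale. The x axis follows the gene order of the reference annotation, not that of the inverted chromosomes. Bars are 95% intervals and filled points have an adjusted p under 0.05. In Inv3 and Inv4 filled points stand on both sides of the open points of Wnt6 and Wnt10a.

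Over the 5 log2 changes, the genes closest to Wnt6 were Serpine2, Bard1 and Utp14b, with root mean square differences of 0.124, 0.132 and 0.141 on the log2 scale among 56 genes with a mean of at least 100. For Wnt10a they were Tns1 (0.269), Tmbim1 (0.277) and Stk36 (0.318) among 57 such genes. Wnt6 and Wnt10a differed from each other by 0.338, just beyond the 0.318 of Stk36 for Wnt10a. With a mean of 51.6, Wnt10a was not a candidate for Wnt6. The SE of Wnt10a, from 0.182 in Inv2 to 0.405 in Inv1DelCTCF, are of the size of these differences, so the order is loose.

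Wnt6 was measured less precisely than other genes of its abundance. Its mean normalised count was 1136 in the joint fit, which was taken to hold 18 libraries. Its SE exceeded that of all 19 listed genes with a mean within a factor of 2, in each of the 4 tables. In Inv1 those 19 genes had SE of 0.0634 to 0.131, with a median of 0.0795, against 0.140 for Wnt6. In Inv1DelCTCF against Inv1, 90.0% of 3680 genes of like mean had a smaller SE than the 0.155 of Wnt6. Wnt10a, with a mean of 51.6, had an SE of 0.188 in Inv1, and 2 of 6 listed genes of like mean had a smaller one. The SE in the tables against WT stay at or below 0.269 at any abundance, so changes of low genes such as Wnt10a are drawn toward 0 there and are understated.

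Levels in each group were rebuilt from the deposited mean and log2 changes, weighted by library numbers. The headers do not name the libraries of a fit, so these levels assume the labelled ones and no others. For Wnt6 they came to 1163 normalised counts in Inv1, 1081 in Inv2, 1132 in Inv3 and 1176 in Inv4, against 1142 in WT. For Wnt10a they were 54.0 in Inv1, 51.3 in Inv2, 56.3 in Inv3 and 59.2 in Inv4, against 43.1 in WT. In the order Inv4, Inv3, Inv1, Inv2 and WT of Wnt10a, no step between neighbours passed a test. Per kilobase of the longest transcript (2071 bases for Wnt6 and 2468 for Wnt10a), Wnt6 stood 26.2-fold above Wnt10a in the joint fit and 19.0-fold above it in the fit of Inv1DelCTCF and Inv1.

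The level of Wnt6 in Inv1 did not carry over between the 2 fits, although both contain the same 3 Inv1 libraries by their labels. The fits were normalised separately, and over 57 genes with a mean of at least 100 the scale differed by -0.14 on the log2 scale, with a median absolute residual of 0.0165. After that scaling the fit with Inv1DelCTCF placed Wnt6 in Inv1 at 720 normalised counts, against 1163 from the fit with WT, a residual of -0.69 on the log2 scale. Of the 57 genes 55 lay within 0.2, and only Fev, with a residual of -1.68 and a rebuilt Inv1 level of 8.77, lay farther off than Wnt6. Wnt10a had a residual of -0.19. The cause of the Wnt6 residual was not tested, and it bears on both fits: the Wnt6 level of Inv1 enters its log2 change against WT in one and its log2 change in Inv1DelCTCF in the other.

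**Figure D3:**
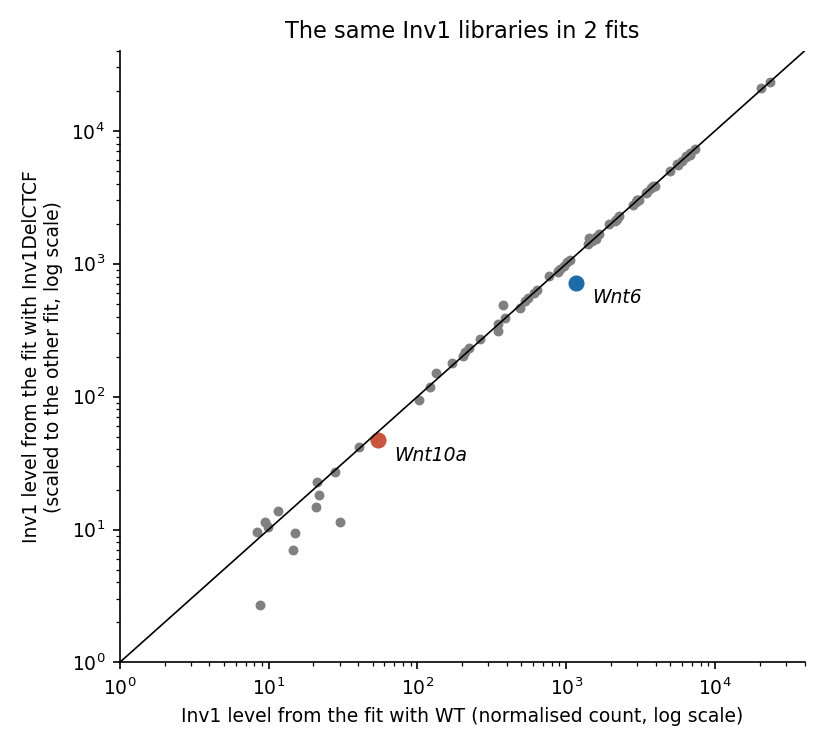
Level of 72 genes in Inv1 rebuilt from the fit with WT (x axis) and from the fit with Inv1DelCTCF scaled to it (y axis), in normalised counts on log axes; the line marks equality. Most points lie on the line, and Wnt6 (blue) lies below it at 720 against 1163.

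In Inv1DelCTCF both ligand genes were lower than in Inv1 without passing the test. With negative values set to mean lower in Inv1DelCTCF, the authors' deposited table lists Wnt6 at a log2 change of -0.43 (SE 0.155), a fold of 0.745 (95% interval 0.603 to 0.919). The authors' deposited table gives it an unadjusted p of 0.00600 and an adjusted one of 0.0509, which place it just outside the threshold, where 11.7% of 11218 genes were called. Wnt10a was at -0.63 (SE 0.405, p = 0.123), a fold of 0.648 (0.374 to 1.12), and the authors' deposited table gives it no adjusted value. Its mean of 36.9 lies below 113, the lowest mean with an adjusted p. Rebuilt levels in that fit were 488 normalised counts in Inv1DelCTCF and 655 in Inv1 for Wnt6, and 27.9 in Inv1DelCTCF and 43.0 in Inv1 for Wnt10a. The 655 is the Inv1 level that differed between the fits (720 against 1163 on 1 scale), so the Wnt6 value of -0.43 rests on it. The groups hold 2 and 3 libraries, and the labels do not tell whether embryos of separate litters were used, so p-values speak of the spread among these libraries only.

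The transcripts of both genes are among the richest in G and C, and the log2 changes of this comparison moved with GC content. Wnt6 had 61.3% and Wnt10a 63.8% GC, above 98.1% and 99.6% of the genes with an adjusted p. Of 5 equal groups of genes by GC, the richest had 20.3% called lower in Inv1DelCTCF and 0.366% higher, whereas in the poorest 0.960% were lower and 9.87% higher. With a trend on GC content and length subtracted across all genes and the SE of the authors' DESeq2 fit kept, Wnt6 stood at -0.21 on the log2 scale (adjusted p = 0.528). Wnt10a then stood at -0.37 (95% interval -1.16 to 0.42). The trend alone came to -0.21 for Wnt6 and -0.25 for Wnt10a.

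**Figure D4:**
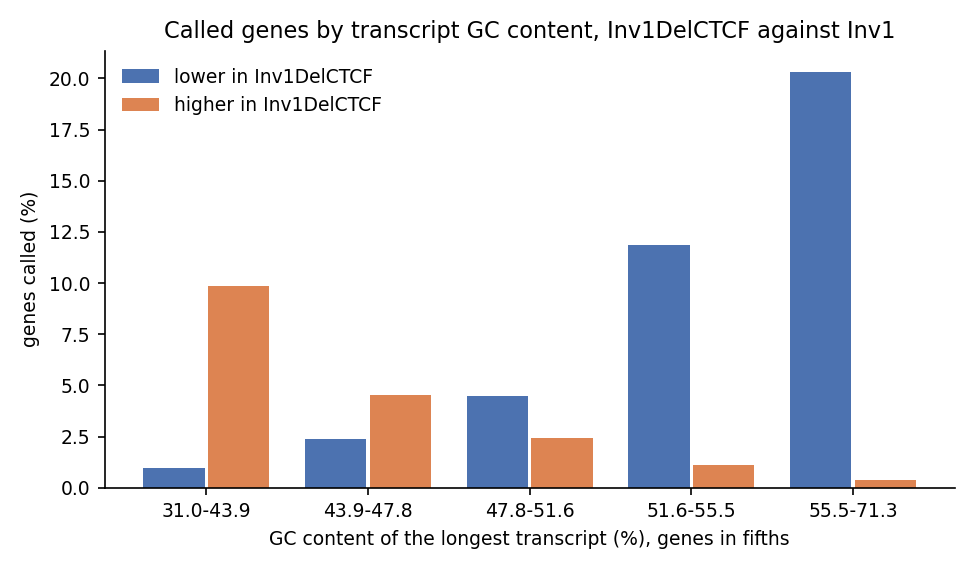
Share of genes called lower (blue) and higher (orange) in Inv1DelCTCF than in Inv1, on the y axis in percent, in 5 equal groups of genes by transcript GC content on the x axis. The share called lower is 0.960% in the poorest and 20.3% in the richest group, which holds both Wnt6 (61.3%) and Wnt10a (63.8%).

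Among the 19 Wnt ligand genes, 10 had an adjusted p, of which Wnt7b and Wnt5a fell in Inv1DelCTCF, against 7.89% of all genes, and 0 rose. Wnt7b, another ligand of the ectoderm, had a level of 728 normalised counts in Inv1DelCTCF and 906 in Inv1, and the authors' deposited table lists it at -0.32 on the log2 scale (SE 0.107, adjusted p = 0.0324). Wnt5a, the ligand of distal limb mesenchyme, stood at 12051 in Inv1DelCTCF and 13423 in Inv1, and the authors' deposited table lists it at -0.16 on the log2 scale (SE 0.056, adjusted p = 0.0498). Neither call held with the GC and length trend subtracted from the authors' DESeq2 values, where Wnt7b was at -0.13 (adjusted p = 0.588) and Wnt5a at -0.15 (adjusted p = 0.104). Adjusted over rows with a mean of at least 10, the DESeq2 p of Wnt5a was 0.0655. Of the 16 ligands with a mean of at least 10, 11 had a negative log2 change. The median of the 10 with an adjusted p was -0.14, against -0.01 over all genes with an adjusted p. Per kilobase Wnt6 had the second highest level of the 19 (284), after Wnt5a (1836) and before Wnt7b (245), and Wnt10a was at place 12 (15.0).

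The other ligands with a mean of at least 10 did not pass. Wnt3, which acts in forming the apical ectodermal ridge, was at -0.32 (SE 0.150, adjusted p = 0.141) and Wnt7a, the dorsal ectoderm ligand, at -0.25 (SE 0.179) in the authors' deposited table. Wnt4 was at -0.09, Wnt5b at -0.12, Wnt9b at -0.02, Wnt9a at 0.13 and Wnt11 at 0.13 in the authors' deposited table. Without an adjusted p were Wnt10b at 0.03, Wnt16 at 0.30, Wnt3a at 0.13, Wnt2b at -0.35 and Wnt2 at -0.56 in the authors' deposited table. Wnt10b, a ligand of the same subfamily as Wnt10a, had levels of 65.7 in Inv1DelCTCF and 64.2 in Inv1, with an SE of 0.296.

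**Figure D5:**
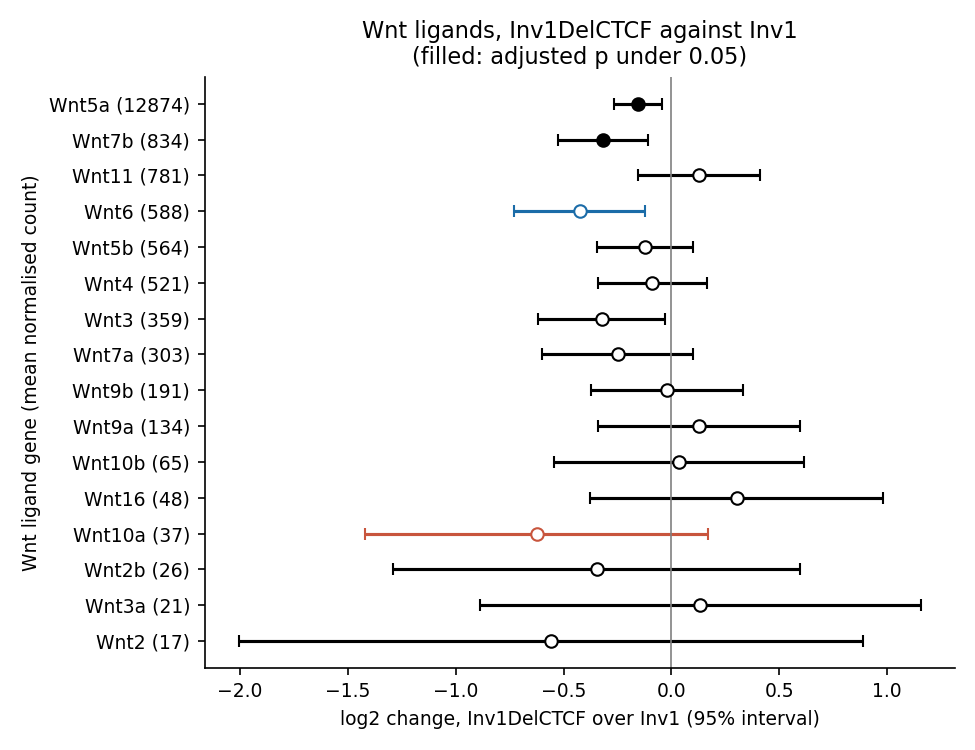
Log2 change of the 16 Wnt ligand genes with a mean of at least 10, Inv1DelCTCF over Inv1 (x axis), ordered by mean normalised count (in brackets on the y axis), with 95% intervals as bars. Filled points, Wnt5a and Wnt7b, have an adjusted p under 0.05, and Wnt6 (blue) at -0.43 is open with an adjusted p of 0.0509.

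The rest of the Wnt pathway was counted in gene lists written with earlier results of these data known. Over the 70 genes of all Wnt lists with an adjusted p, 16 fell in Inv1DelCTCF (22.9%), against 7.89% of all genes, and 0 rose, against 3.81%, in the authors' DESeq2 test. At an unadjusted p under 0.05, 26 were lower and 3 higher. With the GC and length trend subtracted 5 genes were called lower, Fzd3, Fzd10, Tcf7l1, Lef1 and Tcf7. The share of all genes called in both directions together was then 3.66%, against 11.7% before. The median of the 70 genes was -0.12 before and -0.03 after that subtraction.

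Of 16 receptors and co-receptors 6 fell, against 7.89% of all genes, with a median of -0.17. With the GC and length trend subtracted 2 were called lower, Fzd3 and Fzd10. Fzd10, a Frizzled receptor, was at 1861 normalised counts in Inv1DelCTCF and 2617 in Inv1, and the authors' deposited table lists it at -0.49 on the log2 scale (SE 0.091, adjusted p = 1.21e-05). Fzd3 at -0.30, Fzd1 at -0.24 and the co-receptor Lrp5 at -0.37 also fell in the authors' deposited table. Inside the cell 4 of 16 genes fell, against the same 7.89% of all genes, with a median of -0.13. They were the factor gene Tcf7l1 at -0.43, the kinase gene Gsk3b at -0.19, and Dvl3 and Pygo2 at -0.23 and -0.19 in the authors' deposited table. With the trend subtracted only Tcf7l1 was called lower. Of the 2 secretion genes Wls, the carrier of Wnt ligands, is listed by the authors' deposited table at 0.10 (SE 0.058, adjusted p = 0.248) and is the only one with an adjusted value. None of the 15 tested R-spondins, their receptors and secreted antagonists was called, against 11.7% of all genes, with a median of 0.11. Lgr5 at 0.55 (adjusted p = 0.0918) and Dkk2 at 0.65 (adjusted p = 0.174) had the highest log2 changes among them in the DESeq2 fit. Frzb, the most abundant and the most negative of them, is listed there at -0.56 (SE 0.220, adjusted p = 0.0720; the authors' deposited table).

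Of 15 tested target genes of beta-catenin 4 fell, against 7.89% of all genes, with a median of -0.15. Axin2, the feedback scaffold most used as a readout, was at 3067 normalised counts in Inv1DelCTCF and 3635 in Inv1, and the authors' deposited table lists it at -0.25 on the log2 scale (SE 0.069, adjusted p = 0.00858). Lef1 at -0.30, Tcf7 at -0.51 and the receptor ubiquitin ligase Znrf3 at -0.30 fell as well in the authors' deposited table. The list holds no gene called higher. After subtraction of the trend Lef1 at -0.33 (adjusted p = 6.50e-04) and Tcf7 at -0.45 (adjusted p = 0.0302) stayed past the threshold, and Axin2 at -0.14 (adjusted p = 0.301) did not.

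The surface ectoderm, the tissue both ligands are known from, and the apical ridge had 27 tested markers. Of these 7 fell in Inv1DelCTCF (25.9%), against 7.89% of all genes, and the other 20 did not pass. In the surface ectoderm list 5 of 17 tested genes fell and 0 rose, against 7.89% and 3.81% of all genes and 20.3% called lower in the GC-richest group. Its median was -0.18 and, with the trend subtracted, -0.13. A negative sign was found for 16 of the 17, and the other was Krt15, a basal keratin, at 0.77 (SE 0.305, adjusted p = 0.0757) as the authors' deposited table lists it. Its summed level over 20 genes was 17418 normalised counts in Inv1DelCTCF and 20311 in Inv1, a ratio of 0.858 beside the 0.745 of Wnt6, and no gene of it was at 0. Krt5, the basal keratin, fell by 0.30, Cldn6 by 0.53, Cdh1 (E-cadherin) by 0.39 and Krt18 by 0.56 on the log2 scale in the authors' deposited table. In the list of the apical ectodermal ridge 2 of 10 tested genes fell, against 7.89% of all genes and 20.3% in the GC-richest group. They were the homeobox gene Dlx2 at -0.75 and the zinc finger gene Sp8 at -0.64. The summed level of the ridge list was 5733 in Inv1DelCTCF and 6057 in Inv1. Among the 10 tested ridge markers, Adamts9 at 0.37 (adjusted p = 0.0726), Msx2 at 0.14 and Dlx5 at 0.07 had a positive sign, all uncalled by the authors' DESeq2 test. The other 7 were negative, and the most negative, Fgf8 at -1.20 (SE 0.609, adjusted p = 0.188), was not called in that test either. With the trend subtracted, 3 of the 7 calls in the 2 lists remained, Cldn6, Dlx2 and Sp8. In these bulk samples fewer ectodermal cells and less Wnt6 RNA per cell cannot be told apart, and the part of the ectoderm's share in the Wnt6 value was not tested.

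Markers of the tissue and of other cell types were present in both groups. The limb mesenchyme genes Prrx1, Hoxd13 and the forelimb gene Tbx5 had levels of 26274, 19634 and 7449 normalised counts in Inv1DelCTCF and 25638, 18981 and 7155 in Inv1. Of 12 mesenchyme genes 4 fell (Lhx2, Hoxd12, Hoxa13 and Lmo2) and 0 rose, against 7.89% and 3.81% of all genes, and their median of -0.19 was as low as that of the surface ectoderm list. With the trend subtracted 0 of the 12 were called lower and the median was -0.04. Their summed level, carried by abundant genes such as Prrx1, Hoxd13 and Pdgfra, was 101746 in Inv1DelCTCF and 102038 in Inv1. Of 6 tested erythroid genes 2 fell, Hba-x and Hbb-bh1, and of 7 tested endothelial genes 1 fell, Cdh5, against 7.89% of all genes. Summed levels were 82036 in Inv1DelCTCF and 87213 in Inv1 for erythroid genes. For endothelial genes they were 8024 in Inv1DelCTCF and 8879 in Inv1. Muscle precursor genes (5925 in Inv1DelCTCF, 4955 in Inv1) and macrophage genes (1358 in Inv1DelCTCF, 1147 in Inv1, with Adgre1 and its older name Emr1 listed at 0) held no call. Nor did Schwann and nerve genes (1823 in Inv1DelCTCF, 1553 in Inv1) and the 2 hindlimb genes (612 in Inv1DelCTCF, 694 in Inv1). The tested genes of these lists numbered 5, 4, 3 and 1 in that order. Of all genes 11.7% were called, so an absence of calls among so few says little.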

How the data were processed

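RNA-seq libraries of distal forelimbs were compared by the authors, and 5 tables of their comparisons were used. Per the submitters' processing notes, STAR, DESeq2 and the mouse build mm9 were used, without versions, and RNA was extracted with the RNeasy kit per the labels' protocols. Per the file headers, each deposited table holds a mean normalised count (a signal pooled over libraries), a log2 fold change with its SE, a Wald score, a p-value and an adjusted p-value. No value or depth per library is given. The 4 tables against WT have identical means for each of 72 shared genes and were treated as 1 joint fit of 18 libraries. The other table was taken as a separate fit of 5 libraries, with means adding up to 3.02e+07 normalised counts. That the fits held the labelled libraries and no others is an assumption, as the headers do not name them. The 3 Inv1 libraries of embryonic stem cells are not analysed here.

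The headers do not name the numerator. Levels rebuilt in Inv1 from both fits differed least (median absolute residual 0.0165 over 57 genes, against 0.114 or more) when positive means higher in the mutant in the tables against WT and higher in Inv1 in the other, whose sign was turned.

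Calls use the deposited adjusted p-value, with a threshold of 0.05. Intervals are 95% from the SE. Pairs of inversions were compared by the difference of log2 changes over the combined SE with a normal p, which shared WT libraries make conservative. For GC content and length the longest transcript of each gene in GENCODE M21 (GRCm38) was taken, found for 97.5% of genes with an adjusted p, and the trend had powers up to 3 and was fitted with weights from the SE. Neighbours are the 3 listed genes on either side in the reference annotation. Other genes were named by a rule: ligands with a mean of at least 10, up to 4 called genes of each list by p, or else its most abundant gene, some markers by role, and for likeness genes with a mean of at least 100. The members and lists were chosen with earlier results of these data known. The pair, trend, level and sign, and undone shrinkage steps were first tested on simulated data, and the list counts were not. For undone shrinkage the simulation used a known prior, so its recovery was fixed in advance. The simulation for level and sign held no shrinkage. Alternatives were other adjustments, a threshold of 0.1, the trend and undone shrinkage. Tables were read with pandas 2.3.3 under Python 3.11.15, tests used SciPy 1.17.1 with numpy 2.4.6, and plots were drawn with matplotlib 3.10.9.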

Additional observations from a re-analysis of the deposited data

How the results depend on the processing

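No paired analysis was possible because the tables hold no value per library, and for the same reason no library could be left out in turn. Wnt6 kept its direction in the 5 comparisons under every alternative run and was not called, except at a threshold of 0.1 in Inv1DelCTCF (log2 change -0.43). There its adjusted p was 0.0965 over all rows with a p and 0.0668 over rows with a mean of at least 10. Wnt10a at 0.46 in Inv4 was also called at 0.1, and adjusted over the rows of the table its p there was 0.0707. With the shrinkage undone Wnt10a moved to 0.64 in Inv1, 0.47 in Inv2, 0.76 in Inv3 and 0.96 in Inv4 (unadjusted p = 0.0154, 0.0592, 0.00409 and 6.10e-04), and its rebuilt level to 69.1 in Inv4 and 35.6 in WT. That step takes the largest SE as the prior's SD and so undoes the most; for Fev in Inv3 it gave an impossible log2 change of 30.9, so these are limits, not estimates. With the GC and length trend subtracted, genes called lower in Inv1DelCTCF numbered 5 in the Wnt lists, 3 in the ectoderm and ridge lists and 2 in the other cell type lists, and 1 gene of the last was higher. At a threshold of 0.1 the same lists held 1, 2 and 3 genes called higher. The cause of these moves was not tested. Depth per library is unknown, and the low mean of Wnt10a limits what its comparisons can show.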

Other observations

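Residuals between both fits were compared gene by gene, with no test of position. Ordered over the 72 genes of the joint fit that are in all tables, the 4 lowest residuals were those of Fev (-1.68), Ihh (-1.40), Prkag3 (-1.04) and Wnt6 (-0.69), followed by Kcne4 (-0.68) and Cdk5r2 (-0.50) on the log2 scale. The mean normalised count of Wnt6 in the joint fit was 1136, while those of Fev, Ihh, Prkag3 and Cdk5r2 were 113, 59.6, 30.3 and 24.6. Under the other 3 sign conventions the residual of Wnt6 was -0.75, -1.01 and -1.03, so no choice of sign brought it near 0. Wnt10a (-0.19) and Cyp27a1 (-0.06), which stand in the same stretch, had smaller residuals, and Kcne4 is not among the listed neighbours. Rebuilt Inv1 levels of low genes that were called in other inversions, such as Fev, Ihh and Prkag3, rest on log2 changes drawn toward 0 in the joint fit, so those levels are uncertain.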
